A study of Mus musculus with 66 samples.

Results

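Ion channel genes set how a neuron fires, and 42 of them were followed through 7 deposited tables of chromatin regions gained or lost in mouse neurons and brain nuclei. They were 13 genes of voltage-gated calcium channels, 23 of potassium channels and 6 of sodium channels or their modulators, and a region belonged to a gene where the authors' table assigned it to that gene. Of 57678 listed regions, 347 belonged to 41 of the 42 genes. The Kv1.1 gene Kcna1 had none, and no HCN channel gene was among the 42. Histone H3.3 immunoprecipitation gave 39 of the regions over 23 genes, and CATCH-IT, a capture of newly made histones, gave the other 308.

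All groups used here came from C57bl/6 mice. Cortical neurons from embryos (E16.5), grown in culture for 8 days, were either depolarised with isotonic KCl for 30 min, 2 hr or 5 hr or left as unstimulated controls of the same duration. H3.3 was precipitated at each of these times, H3.1/2 at 5 hr, and CATCH-IT was run at 5 hr. Hippocampal nuclei from mice of about 7 weeks, with 4 weeks of environmental enrichment or normal housing, were sorted into NeuN+ nuclei, which are neuronal, and NeuN- nuclei, and H3.3 was precipitated. Each table gave 3 values per group, except that NeuN+ nuclei gave 2. The study asked how neuronal activity and adult plasticity affect histone turnover. Regions were listed only past about 3-fold, so a gene that is not listed was not shown to be unchanged, and groups that do not overlap follow in part from the listing. No listed channel region had an authors' deposited p above 9.87e-05, so the listing appears to select on p as well.

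Voltage-gated calcium channels open on depolarisation and let calcium in, which drives transmitter release at terminals and signalling to the nucleus. Potassium channels carry outward current that repolarises the membrane, and sodium channels start the action potential. The variant H3.3 enters nucleosomes without DNA synthesis, so in a neuron that no longer divides it marks sites where nucleosomes are replaced.

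Depth bounds every value below. A single read was worth a normalised count of 0.758 to 1.36 in the H3.3 culture libraries, 0.785 to 1.51 in NeuN+, 0.542 to 2.64 in NeuN- and 0.316 to 2.72 in CATCH-IT libraries. The second enriched NeuN- library stood apart, since 1 of its reads was worth 2.64. All KCl libraries shared lanes apart from all control libraries at 30 min, at 2 hr and in CATCH-IT, and the enriched and normally housed NeuN- libraries were split likewise, so lane and group cannot be told apart there. Marker genes could not check the cell types, because the tables hold only changed regions. Of 6 neuron markers 0 were listed in either hippocampal table, while among 7 astrocyte markers Aldh1l1 and Gpc5 were gained in NeuN+ and Gpc5 in NeuN- nuclei, the oligodendrocyte gene Mbp was gained in NeuN+ and the microglial gene P2ry12 was lost in NeuN- nuclei. In the cultures the neuron markers Celf5, Snap25 and Syt1 were lost at 30 min, and the interneuron marker Reln was lost at 30 min and 2 hr. The astrocyte markers Gpc5 and Slc4a4 were lost at 2 hr, and the endothelial marker Pecam1 was gained at 30 min. At 5 hr Gpc5 was listed the other way, as gained, but was not called by its adjusted p. The part of these markers in the channel results was not tested. In these bulk samples, a change in the mix of nuclei and a change within each nucleus cannot be told apart.

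The pore genes of the high-voltage-activated calcium channels were listed after 2 hr and 5 hr of KCl in the cultures. After 2 hr of KCl, 4 of these 5 genes had a region, and H3.3 rose at Cacna1b and fell at Cacna1c, Cacna1d and Cacna1e. Of the 689 regions listed at 2 hr, 14.2% were called as gained and 85.3% as lost at the authors' adjusted p of 0.05 or less, and of the 6 channel regions 1 was called as gained and 5 as lost, close to that background. After 5 hr Cacna1a, Cacna1b and Cacna1c were listed, all as gained, but none passed. At 5 hr, 3.00% of the 667 regions passed at that limit, and 0 of the 10 channel regions did. By listing alone, 44.2% of that table was gained and 55.8% lost, against 6 and 4 of the channel regions.

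Cacna1b encodes the N-type channel that serves transmitter release, and it was the only listed channel gene with a gained region at both 2 hr and 5 hr. At 2 hr the KCl values were 11.03, 14.40 and 12.26 and the control values 3.05, 4.17 and 0.00. Every KCl library was high, and the third control library held no read there. The means were 12.6 ± 1.71 and 2.41 ± 2.158 (SD, n = 3 each). The authors' deposited table gave a log2 fold change of 2.38, adjusted p = 0.0107, and levels of 4.07 and 0.42 times input. Without the third control value the log2 fold change was 1.80, and without the second it was 3.04. At 5 hr the KCl values were 17.70, 14.05 and 12.90 and the control values 5.90, 4.10 and 4.85. These groups did not overlap either, yet the authors' deposited table gave adjusted p = 0.110 with a log2 fold change of 1.59. The 2 intronic regions lay 8021 bp apart within the gene at chr2:24459407-24618672 (mm9, minus strand). They are shown because the gene was listed as gained at both times, from chr2:24521401-24521600 and chr2:24513181-24513380 on the plus strand, with each CpG in capitals.
Cacna1b at 2 hr: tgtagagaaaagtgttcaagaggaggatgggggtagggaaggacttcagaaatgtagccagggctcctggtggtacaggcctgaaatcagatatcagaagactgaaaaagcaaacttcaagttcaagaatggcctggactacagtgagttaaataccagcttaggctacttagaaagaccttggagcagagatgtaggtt
Cacna1b at 5 hr: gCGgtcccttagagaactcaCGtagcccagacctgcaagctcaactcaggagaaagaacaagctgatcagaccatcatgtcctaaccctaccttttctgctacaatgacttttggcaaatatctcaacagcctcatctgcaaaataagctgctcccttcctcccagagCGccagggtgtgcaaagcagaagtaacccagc
The first holds 0 CpG at 45% G and C, and the other 3 CpG at 50.0%.

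Cacna1c encodes the L-type channel Cav1.2, which couples calcium entry to transcription. At 2 hr an intronic region 95.6% along the gene fell, with KCl values of 1.84, 4.55 and 5.45 and control values of 14.26, 11.66 and 14.73. The highest KCl library lay well below the lowest control library. Its log2 fold change was -1.78 with adjusted p = 0.0205 in the authors' deposited table. At 5 hr a different intronic region was listed as gained, with KCl values of 15.74, 12.29 and 15.87 and control values of 3.54, 4.10 and 6.79. Groups did not overlap in either table, but at 5 hr the authors' deposited table gave adjusted p = 0.110 with a log2 fold change of 1.61. The opposite directions therefore belong to separate places in the gene (chr6:118542314-119146249, minus strand), and whether the effect differs between times was not tested. Both are printed because they carry this contrast, from chr6:118568961-118569160 and chr6:118798341-118798540 (mm9, plus strand, CpG in capitals).
Cacna1c lost at 2 hr: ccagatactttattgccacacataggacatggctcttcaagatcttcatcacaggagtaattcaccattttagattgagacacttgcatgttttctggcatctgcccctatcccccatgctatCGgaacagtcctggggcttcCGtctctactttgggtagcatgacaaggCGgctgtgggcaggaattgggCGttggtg
Cacna1c gained at 5 hr: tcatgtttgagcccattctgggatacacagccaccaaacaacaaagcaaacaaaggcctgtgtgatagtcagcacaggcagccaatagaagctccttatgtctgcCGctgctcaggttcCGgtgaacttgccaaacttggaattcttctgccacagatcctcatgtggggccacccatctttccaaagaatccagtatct
Their base composition was alike, 49.5% and 49.0% G and C, with 4 and 2 CpG.

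Cacna1d, the Cav1.3 L-type gene, and Cacna1e, the R-type gene, fell at 2 hr in introns. For Cacna1d (chr14:31142821-31143020) the KCl values were 1.84, 2.27 and 2.72 and the control values 9.16, 10.00 and 11.05. For Cacna1e (chr1:156555081-156555280) they were 2.76, 3.79 and 4.09 against 10.18, 13.33 and 14.73. In both genes the highest KCl library stayed below the lowest control library, and relative to input the authors' deposited table gave 0.74 against 2.17 for Cacna1d and 1.15 against 4.57 for Cacna1e. Adjusted p was 0.0228 for Cacna1d and 0.0210 for Cacna1e in the authors' deposited table, with log2 fold changes of -2.14 and -1.85. Cacna1a, the P/Q-type gene, was listed as gained at 5 hr (chr8:87005781-87005980, intron), with KCl values of 13.77, 15.80 and 14.88 and control values of 2.36, 7.18 and 4.85. The control libraries spread widely but none reached the KCl range, and adjusted p = 0.110 in the authors' deposited table.

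Low-voltage-activated, or T-type, calcium channels open near rest and support burst firing. At 5 hr their genes were listed in opposite directions, and neither passed. Cacna1h (chr17:25529441-25529640) was listed as gained over a coding exon, with 10.82, 10.53 and 9.92 in KCl and 2.36, 2.05 and 2.91 in control. These were the tightest groups among the channel regions at 5 hr listed as gained, with SDs of 0.459 and 0.436. Cacna1g (chr11:94270101-94270300) was listed as lost at its 3′ end, 99.2% along the gene in exon sequence outside the coding part, with 3.93, 6.14 and 2.98 in KCl and 15.35, 12.30 and 14.55 in control. The authors' deposited table gave log2 fold changes of 2.09 for Cacna1h and -1.69 for Cacna1g. Cacna1i, the third gene of this class, had no H3.3 region.

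Auxiliary calcium channel subunits carry the pore to the membrane and tune it, the beta subunits from inside the cell and the alpha2delta subunits from outside. Cacna2d1 fell at 2 hr (chr5:15697901-15698100, intron), from control values of 9.16, 12.50 and 13.50 to 0.92, 4.55 and 2.72 in KCl. All KCl libraries were low, and the authors' deposited table gave a log2 fold change of -2.10 with adjusted p = 0.0192. Cacnb4 had the smallest p of the channel regions at 5 hr (chr2:52422041-52422260, intron). Its KCl values were 15.74, 16.68 and 11.91 and its control values 3.54, 2.05 and 6.79, with adjusted p = 0.0891 in the authors' deposited table. Cacna2d3 was listed as lost at 5 hr (chr14:30377901-30378100, intron), with 2.95, 1.76 and 3.97 in KCl and 12.98, 12.30 and 8.73 in control. Cacnb2 had no H3.3 region.

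Potassium channel genes gave 4 of the 17 culture regions. After 30 min the only channel region was at Kcnd3, which encodes the A-type channel Kv4.3 that delays firing, and H3.3 fell there. Its KCl values were 1.73, 4.21 and 2.06 and its control values 11.41, 11.66 and 12.70 (chr3:105364721-105364920, intron). All KCl libraries lay far below the closely grouped controls, 2.66 ± 1.35 against 11.9 ± 0.684 (SD, n = 3 each). The log2 fold change was -2.16 with adjusted p = 0.0198 in the authors' deposited table, in which 78.6% of 457 regions were called as lost. After 2 hr no potassium channel gene was listed. After 5 hr Kcnj3, a subunit of the G-protein-gated inward rectifier, was listed as lost (chr2:55312461-55312660, intron), with 2.95, 1.76 and 1.98 in KCl and 9.44, 10.25 and 9.70 in control. The controls agreed within a narrow range, but adjusted p = 0.110 in the authors' deposited table.

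Kcnma1 encodes the BK channel, which opens on both calcium and voltage and ends the spike, and it was listed in both directions at 5 hr. In the gained region the KCl values were 13.77, 14.05 and 15.87 and the control values 4.72, 5.13 and 3.88. In the lost region they were 1.97, 4.39 and 0.00 against 9.44, 9.23 and 11.64. Neither pair of groups overlapped, and the authors' deposited table gave adjusted p of 0.108 and 0.109. The log2 fold change of the lost region went from -2.25 to -3.36 without the second KCl value and to -1.67 without the third. The regions lay far apart in introns of the gene at chr14:24117983-24622526 (mm9, minus strand), and differed in composition. They are printed from chr14:24363421-24363680 and chr14:24220121-24220320, plus strand, with CpG in capitals.
Kcnma1 gained at 5 hr: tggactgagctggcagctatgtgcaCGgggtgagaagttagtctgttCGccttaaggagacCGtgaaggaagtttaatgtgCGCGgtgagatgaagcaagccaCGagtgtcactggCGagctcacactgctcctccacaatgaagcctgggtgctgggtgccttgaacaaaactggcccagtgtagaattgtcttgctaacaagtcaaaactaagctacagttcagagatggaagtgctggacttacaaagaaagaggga
Kcnma1 lost at 5 hr: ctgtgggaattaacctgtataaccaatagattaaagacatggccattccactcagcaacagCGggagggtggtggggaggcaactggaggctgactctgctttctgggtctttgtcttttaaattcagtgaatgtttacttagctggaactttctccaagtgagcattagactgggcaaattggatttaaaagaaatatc
The gained region holds 7 CpG at 50.4% G and C, the most CpG of the 39 H3.3 regions, and the lost region 1 CpG at 43.0%.

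Of the sodium channel genes only Fgf12 had a culture region. It encodes an FGF homologous factor that binds the cytoplasmic tail of sodium channels, and it fell at 2 hr (chr16:28310241-28310440, intron), from 15.27, 10.00 and 13.50 in control to 3.68, 3.79 and 2.72 in KCl. The authors' deposited table gave a log2 fold change of -1.93 with adjusted p = 0.0210. The pore genes Scn1a, Scn2a1, Scn3a and Scn8a were not listed for H3.3 in culture. H3.1/2, the replication-coupled form, gave 7 regions in all after 5 hr, of which 0 lay at a channel gene.

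**Figure D1:**
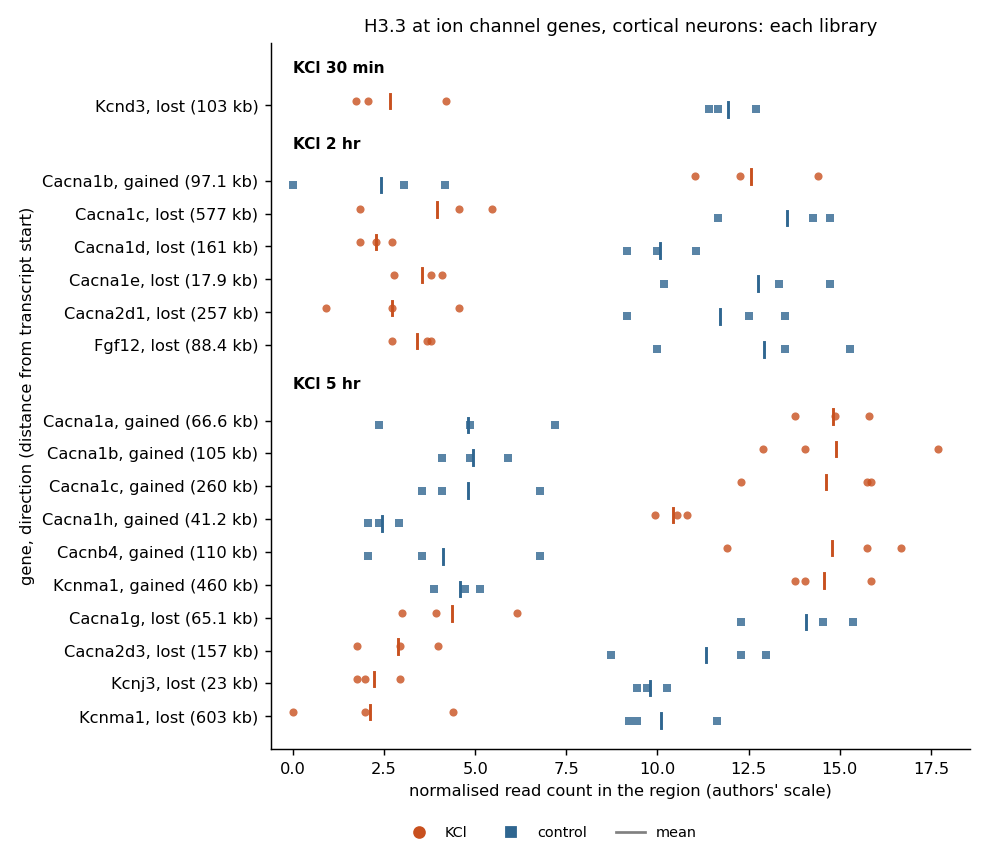
Normalised read count of H3.3 (horizontal axis) at each of the 17 channel gene regions listed in cultured cortical neurons, by KCl time, with the distance from the start of the assigned transcript in brackets. Orange circles are KCl libraries, blue squares control libraries and vertical bars the means of 3. That groups do not overlap follows in part from the listing, and the 10 regions at 5 hr did not pass the adjusted p of 0.05.

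In NeuN+ hippocampal nuclei, enriched housing gave 15 channel regions over 9 genes, and all 15 passed. H3.3 rose at 4 and fell at 11, while 70.1% of the 1642 regions in that table were called as gained and 27.7% as lost. The channel regions thus lay mostly on the side opposite to the table as a whole. By class, calcium channel genes had 4 regions gained and 3 lost, potassium channel genes 0 gained and 6 lost, and sodium channel genes 0 gained and 2 lost. The direction was not tested for the list, because its members were chosen with results known and regions of a gene share the same libraries. Of the 36 channel genes longer than 100 kb, 22.2% had a NeuN+ region, beside 14.5% of all 2405 genes over 100 kb. These sets are not matched in length, since 18 of the 36 but only 529 of the 2405 exceed 300 kb. The same shares were 11.1% beside 11.3% in NeuN- nuclei, and in culture 2.78% beside 6.61% at 30 min, 16.7% beside 8.98% at 2 hr and 19.4% beside 8.15% at 5 hr.

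The potassium channel genes that fell in NeuN+ nuclei were Kcnma1 at 3 places, Kcnh1, Kcna4 and Kcnq3. At Kcnma1 the enriched values were 5.49 and 3.42 and the normal values 16.56 and 20.55 in the region at chr14:24562141-24562340, and 6.28 and 4.28 against 18.07 and 21.57 at chr14:24414101-24414300. The third, at chr14:24538681-24538880, had 5.49 and 4.28 against 18.07 and 18.49. All 3 lie in introns, 11.9%, 41.3% and 16.6% along the gene in the order given, and both enriched libraries were low in each. Adjusted p ran from 0.0308 to 0.0356 in the authors' deposited table, and the log2 fold changes were -2.06, -1.91 and -1.90. Kcnh1, which encodes the EAG channel Kv10.1, went from 28.60 and 22.60 in normal to 9.42 and 5.14 in enriched housing (chr1:194019701-194019960, intron), with adjusted p = 0.0238 in the authors' deposited table. Kcna4, the gene of the A-type channel Kv1.4, went from 19.57 and 20.55 to 4.71 and 6.85 within its coding exon (chr2:107136041-107136240). Kcnq3, a subunit of the M-current that restrains repetitive firing, went from 24.09 and 19.52 to 6.28 and 7.71 (chr15:66074921-66075120, intron). For these last genes the authors' deposited table gave log2 fold changes of -1.80 and -1.64 and adjusted p of 0.0344 and 0.0415.

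Fgf14, whose product modulates sodium channels at the axon initial segment, had the smallest p of the channel genes in NeuN+ nuclei. Its values were 1.57 and 2.57 in enriched and 16.56 and 16.44 in normal housing (chr14:124889341-124889540, intron). The normally housed libraries were almost equal, with an SD of 0.0849 (n = 2), and the mean of the enriched ones was 2.07 ± 0.707 (SD, n = 2). The authors' deposited table gave a log2 fold change of -3.00 with adjusted p = 0.0124, and 0.33 against 3.63 times input. Scn3a, a sodium channel pore gene of early development, fell from 21.08 and 19.52 to 7.85 and 4.28 (chr2:65361061-65361260, intron), with adjusted p = 0.0418 in the authors' deposited table.

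Calcium channel genes held all the regions that rose in NeuN+ nuclei. Cacna2d2, an alpha2delta subunit gene, rose at 2 places and fell at none. The first lay 2262 bp before its annotated start, in what the authors call a promoter (chr9:107299581-107299780), with 23.55 and 19.69 in enriched and 6.02 and 7.19 in normal housing. The other lay in an intron (chr9:107323601-107323800), with 18.05 and 16.27 against 4.52 and 4.11. Both had adjusted p = 0.0395 in the authors' deposited table, with log2 fold changes of 1.71 and 1.99. Cacna2d3, of the same family, rose at chr14:29896721-29896920, with 16.48 and 16.27 against 0.00 and 5.14, and fell at chr14:29948361-29948580, with 7.85 and 5.99 against 21.08 and 23.63. It fell at a further intronic region as well, with 6.28 and 3.42 against 22.58 and 16.44. For the region that rose, the log2 fold change of 2.67 in the authors' deposited table went to 1.67 without the first normal value, which was 0.

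Cacna1a was also changed in both directions in NeuN+ nuclei. It rose 1588 bp inside an annotated start of a shorter transcript, over a coding exon and the intron after it, with 20.41 and 20.55 in enriched and 3.01 and 7.19 in normal housing. It fell in an intron upstream of that place, with 5.49 and 5.14 against 16.56 and 20.55. In both regions the enriched libraries nearly coincided and the normally housed ones were more apart. The authors' deposited table gave log2 fold changes of 2.01 and -1.80 and adjusted p of 0.0344 and 0.0379. The first went to 1.51 without the first normal value and to 2.77 without the second, with the remaining value alone in its group. The sequences are shown as the case of opposite change within a single gene (chr8:86912339-87164145, plus strand), from chr8:87072461-87072700 and chr8:87054981-87055180 (mm9, plus strand, CpG in capitals).
Cacna1a gained in NeuN+: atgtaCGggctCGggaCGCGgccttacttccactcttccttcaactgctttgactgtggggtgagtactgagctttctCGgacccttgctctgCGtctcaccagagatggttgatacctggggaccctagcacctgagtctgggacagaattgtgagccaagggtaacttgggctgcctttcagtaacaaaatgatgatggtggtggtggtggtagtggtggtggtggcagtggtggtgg
Cacna1a lost in NeuN+: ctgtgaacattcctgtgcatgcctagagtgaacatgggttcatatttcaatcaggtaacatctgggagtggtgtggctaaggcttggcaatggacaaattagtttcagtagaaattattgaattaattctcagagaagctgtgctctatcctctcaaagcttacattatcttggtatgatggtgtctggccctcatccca
The gained sequence holds 6 CpG at 55.0% G and C and ends in a run of gtg repeats, and the lost sequence holds 0 CpG at 42%.

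In NeuN- nuclei 7 channel regions over 4 genes were listed and all passed, 3 gained and 4 lost, in a table with 70.6% of 1196 regions called as gained and 29.3% as lost. None was at a calcium channel gene. Kcnq1, the KvLQT1 channel gene, Kcnn2, the SK2 channel gene, and Fgf14 each had a region in each direction, and Kcnip4, a Kv4 auxiliary subunit gene, had a lost region only. At Kcnq1 the gained and the lost region lay 222477 and 241217 bp from the start of the assigned transcript, both in introns. Where it rose (chr7:150557001-150557280), the enriched values were 11.63, 13.21 and 8.13 and the normal values 2.84, 0.68 and 1.81. Enriched libraries were all higher, but relative to input the authors' deposited table gave 3.57 against 2.04, the smallest shift of the 7, with adjusted p = 0.00361. Where Kcnq1 fell (chr7:150575781-150575980), the enriched values were 0.00, 0.00 and 1.08 and the normal values 5.69, 7.43 and 5.43.

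Reads were few in this table. At Fgf14 the gained region (chr14:124872821-124873020, intron) had 6.98, 5.28 and 6.51 in enriched nuclei, which are 6, 2 and 12 reads, and 0.95, 0.68 and 0.90 in normal ones, which are 1 read each. Its lost region (chr14:125061721-125061920, intron) had 0.00, 2.64 and 0.54, or 0, 1 and 1 reads, against 6.63, 6.08 and 8.14, or 7, 9 and 9 reads. The middle value shows what the shallow second enriched library does, since 2.64 there is a single read. Kcnip4 (chr5:48832101-48832360, intron) had 0, 0 and 2 reads in enriched and 9, 9 and 6 in normal nuclei. Kcnn2 had 6, 2 and 10 against 1, 1 and 1 reads in its gained intronic region and 1, 0 and 0 against 6, 11 and 7 in its lost one. The adjusted p-values of these 5 regions in the authors' deposited table ran from 0.00415 to 0.00776. Fgf14 was thus lost in NeuN+ nuclei and both gained and lost in NeuN- nuclei, at 3 different places, and the difference between the sorted fractions was not tested.

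**Figure D2:**
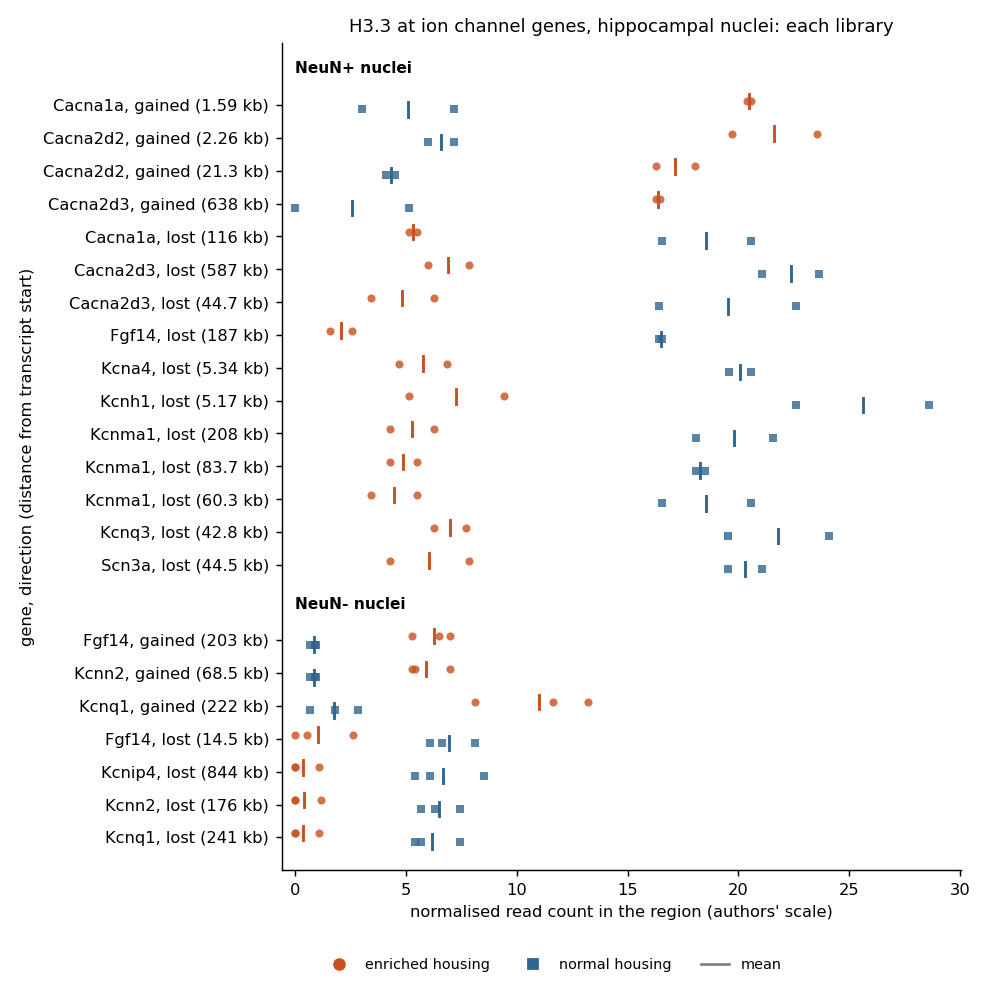
Normalised read count of H3.3 (horizontal axis) at the 22 channel gene regions listed in hippocampal nuclei, with the distance from the start of the assigned transcript in brackets. Orange circles are enriched and blue squares normally housed libraries, 2 per group in NeuN+ and 3 in NeuN-, and bars are means; of the 15 NeuN+ regions 11 have the enriched libraries low, and the lower groups in NeuN- lie at or near 0.

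CATCH-IT listed 308 regions at 40 of the 42 genes after 5 hr of KCl, 177 gained and 131 lost, all at an adjusted p of 0.05 or less. In the whole table of 53020 regions 57.3% were called as gained and 42.7% as lost, and the channel shares of 57.5% and 42.5% lay at that background. Kcna1 and Kcna4, which are short genes of a single coding exon, had none. Both directions were found at 36 genes, and 4 had only gained regions. Gained regions were the more frequent at 22 genes and lost regions at 9, and both were equal at 9.

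By class, calcium channel genes had 52 gained and 55 lost regions, or 48.6% gained, potassium channel genes 92 and 57, or 61.7%, and sodium channel genes 33 and 19, or 63.5%. Among calcium channel pores Cacna1c had the most regions of any member, 17 gained and 8 lost, while Cacna1a had 1 and 6, Cacna1b 2 and 1, Cacna1d 5 and 5 and Cacna1e 2 and 2. The T-type genes Cacna1g, Cacna1h and Cacna1i had 2 and 3, 1 and 0, and 1 and 2. Of the auxiliary subunits, Cacna2d3 had 9 gained and 13 lost and Cacna2d2 2 and 6, while Cacna2d1 had 3 and 2, Cacnb2 6 and 4 and Cacnb4 1 and 3. By single gene, Cacna1c had the largest gained and Cacna2d3 the largest lost count of the 42.

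Calcium- or sodium-activated potassium channels had the highest share gained of any class, 27 of 34 regions or 79.4%. Kcnma1 had 11 gained and 2 lost, the SK3 gene Kcnn3 10 and 2, Kcnn2 3 and 0, and the sodium-activated Kcnt2 3 and 3. The KCNQ genes had 14 gained of 24, with 2 and 2 at Kcnq1, 5 and 2 at Kcnq3 and 7 and 6 at Kcnq5. The EAG family had 17 of 30, with 4 and 3 at Kcnh1, 5 and 2 at Kcnh5, and 4 and 4 at each of Kcnh7 and Kcnh8. Delayed rectifier and A-type pores had 17 of 31, with 6 and 3 at Kcnb2, 3 and 3 at Kcnc2, 4 and 5 at Kcnd2, 2 and 3 at Kcnd3, and a single gained region at each of Kcna2 and Kcnc1. The Kv4 auxiliary genes Kcnip1 and Kcnip4 had 2 and 3 and 8 and 5, and the inward rectifiers Kcnj3 and Kcnj6 3 and 1 and 4 and 4. Sodium channel pores had 4 gained and 1 lost at Scn1a, 3 and 2 at Scn2a1, 2 and 2 at Scn3a and 6 and 4 at Scn8a, and the FGF homologous factors 9 and 3 at Fgf12 and 9 and 7 at Fgf14. These class shares were not tested against each other, since regions of a table come from the same 6 libraries.

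**Figure D3:**
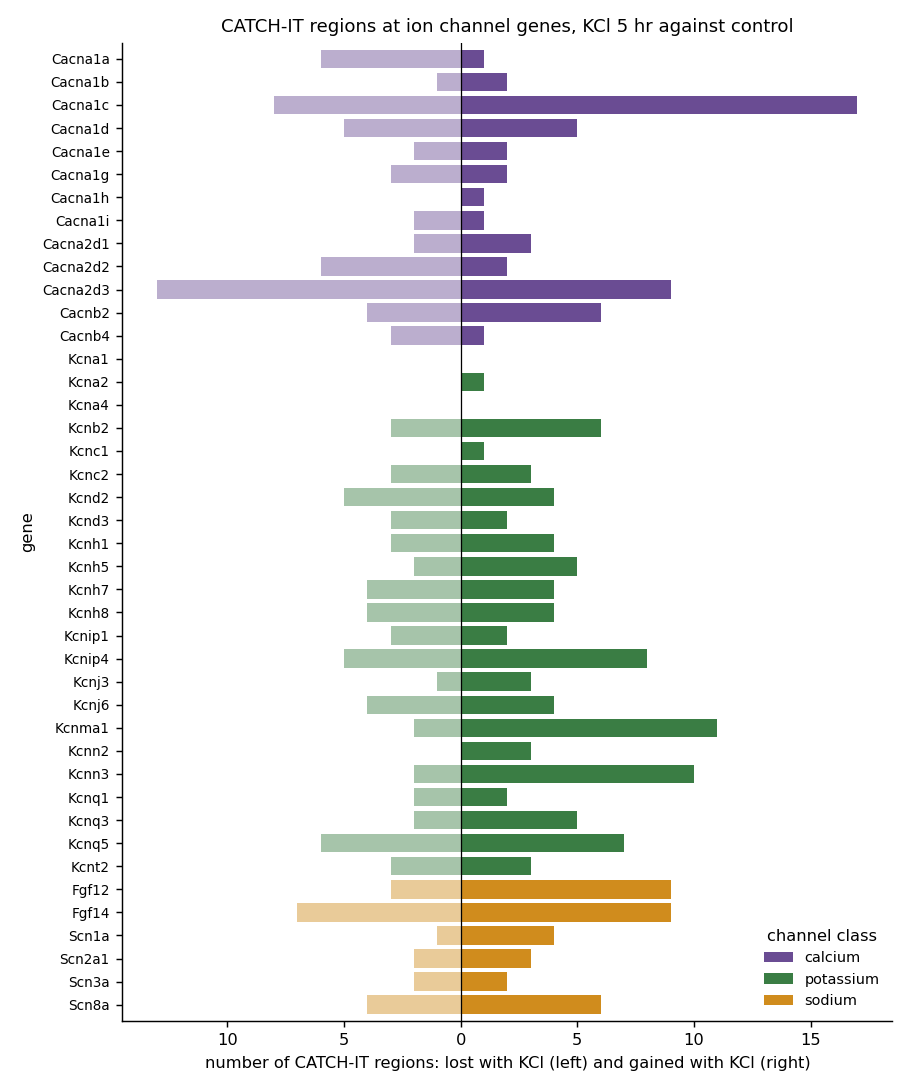
Number of CATCH-IT regions per channel gene after 5 hr of KCl, with regions gained to the right (full colour) and lost to the left (pale), coloured by channel class. Cacna1c reaches 17 gained, Cacna2d3 13 lost, Kcnma1 and Kcnn3 11 and 10 gained with 2 lost each, and Kcna1 and Kcna4 have none.

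CATCH-IT regions rested on few reads and on an empty lower group. In 303 of the 308 the lower group was at 0 in all 3 libraries, and the median region had 18 reads over the 3 libraries of the higher group, from 8 to 55. A single library held over 50% of the higher group's value in 247 regions, or 80.2%, beside 78.3% over the whole table. The third control library was the highest in 106 of the 131 lost regions, and it held exactly 12 reads in 94 of them, or 71.8%, beside 67.6% over all lost regions. Among gained regions the second KCl library held exactly 12 reads in 52 of 177. The part of such repeated read numbers in the results was not tested. With only regions in which no library held over 50%, 42 gained and 19 lost were left.

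The gained regions with the smallest p were at Fgf14, Cacnb2, Fgf12, Kcnq3, Cacna2d3 and Scn1a, each at 0 in all control libraries. Fgf14 (chr14:124424501-124425180, intron) had 25.38, 8.52 and 5.44 in KCl, which are 19, 16 and 2 reads. Cacnb2 (chr2:14773161-14773540, intron) had 17.37, 3.20 and 5.44, and Fgf12 (chr16:28589421-28589800, outside the annotated gene) 16.03, 3.73 and 5.44. The first KCl library was the highest in these 3 regions. Kcnq3 (chr15:66029061-66029460, intron) had 18.70, 3.73 and 8.15, Cacna2d3 (chr14:30305041-30305420, intron) 6.68, 6.92 and 5.44, and Scn1a (chr2:66111181-66111560, coding exon) 18.70, 0.53 and 8.15. Cacna2d3 was the most even of the 6, and at Scn1a the second KCl library had a single read. All 6 had adjusted p = 4.15e-07 in the authors' deposited table.

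The lost regions with the smallest p were at Kcnd2, Kcnh7, Kcnj6, Cacna1i, Cacna1d and Kcnt2, each in an intron and at 0 in all KCl libraries. Kcnd2, the Kv4.2 gene (chr6:21557401-21557780), had 3.47, 20.79 and 21.29 in control, which are 11, 15 and 18 reads. Kcnh7 (chr2:62793181-62793560) had 2.84, 13.86 and 15.37, and Kcnj6 (chr16:95048281-95048660) 3.79, 5.54 and 22.47. Cacna1i (chr15:80197781-80198160) had 2.21, 6.93 and 22.47, Cacna1d (chr14:31213701-31214080) 6.31, 11.09 and 14.19, and Kcnt2 (chr1:142315981-142316280) 1.89, 15.24 and 14.19. The first control library was the lowest in all 6 by normalised count, and adjusted p ran from 4.15e-07 to 1.03e-06 in the authors' deposited table.

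Promoters were touched by 7 of the 308 CATCH-IT regions, or 2.27%, beside 11.6% of all gene-assigned CATCH-IT regions. These shares were not matched for gene length, and channel genes are long. Kcnn3 and Kcnj3 gained, and Cacna1b, Cacna1e, Cacnb4, Scn8a and Kcnt2 lost. Kcnn3 (chr3:89323641-89324020), 255 bp before the start with 16 CpG and 56.8% G and C, had 4.01, 7.46 and 2.72 in KCl and 0 in control. Kcnj3 (chr2:55291881-55292260), 2504 bp inside, had 9.35, 3.73 and 16.31 against 0. The lost promoters with the smallest p were Cacna1b (chr2:24617041-24617340), with 0.95, 5.54 and 14.19 in control, Cacna1e (chr1:156574721-156575080), with 2.21, 4.16 and 14.19, Cacnb4 (chr2:52413161-52413480), with 0.95, 16.63 and 1.18, and Scn8a (chr15:100702561-100702900), with 1.26, 2.77 and 14.19. All were at 0 in KCl, and in 3 of these 4 the third control library held the most. Adjusted p in the authors' deposited table was 4.17e-07 for Kcnj3, 7.39e-06 for Kcnn3 and from 6.47e-05 to 0.000163 for those 4.

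The number of CATCH-IT regions went with gene length. Channel genes are long, with a median annotated length of 268 kb and 36 of 42 over 100 kb. Across the 42 genes, the number of regions had Pearson's r of 0.72 and Spearman's rho of 0.69 with length; genes are not independent replicates, and all points share the same libraries. Per 100 kb the channel genes had 2.398 regions and all annotated genes 2.22. Kcnn3 had 8.13 per 100 kb, Scn8a 8.89 and Cacna1g 7.61, while Kcnn2 had 0.719 and Kcnip4, the longest member at 1135 kb, 1.15. For genes from 100 to 300 kb the rate was 3.34 at channel genes and 2.11 at all genes, and above 300 kb it was 1.99 and 1.88. The 42 genes were chosen with earlier results of these data known, so higher rates at them may be partly built in.

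**Figure D4:**
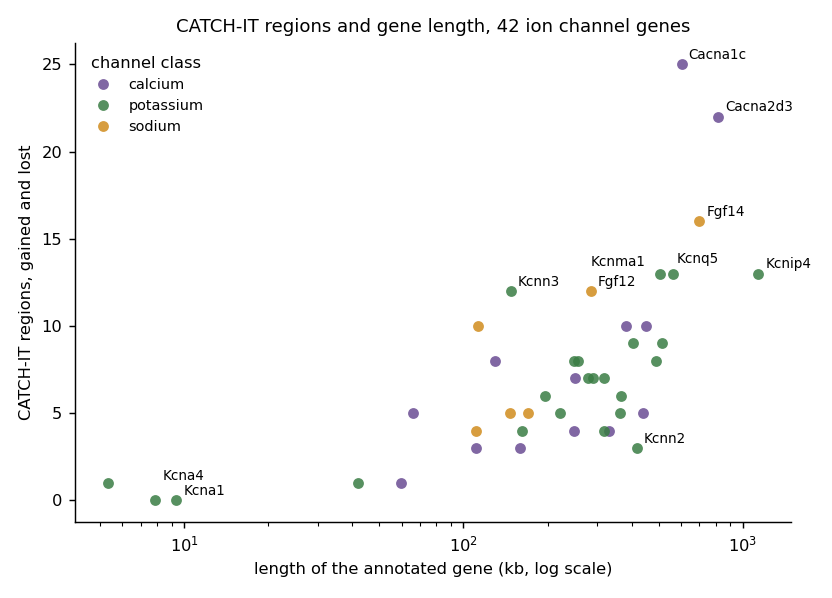
Number of CATCH-IT regions, gained and lost together, against the length of the annotated gene (log axis) for the 42 channel genes, coloured by class. Counts rise with length from 0 at Kcna1 and Kcna4 to 25 at Cacna1c and 22 at Cacna2d3, with Kcnn3 high and Kcnn2 low for their lengths.

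Most channel regions lay deep inside genes. Of the 39 H3.3 regions 34 were intronic, 3 overlapped a coding exon, 1 an exon outside the coding part and 1 lay outside the annotated gene. Their median distance from the start of the assigned transcript was 103 kb, beside 24.4 kb over all gene-assigned H3.3 regions. For CATCH-IT the median distance was 138 kb beside 39.3 kb, and 263 of 308 were intronic. These distances were not matched for gene length, and the channel genes have a median length of 268 kb. Of the 282 inside the annotated gene, 77 lay in the first, 99 in the middle and 106 in the last part when genes were divided into parts of equal length.

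In culture, pooled over the KCl times, and in NeuN+ nuclei, gained regions were richer in G and C than lost ones. The 14 gained H3.3 regions had a median of 50.2% G and C, from 41.0 to 58.5%, and the 25 lost ones 45.4%, from 38.1 to 54.1%. Over all H3.3 regions the medians were 50.0% and 46.0%. The medians of the channel regions were 50.4% against 44.3% in culture and 54.8% against 45.5% in NeuN+ nuclei. In NeuN- nuclei both were 46.0%, and over all regions of that table the order was the other way, 45.9% gained against 48.0% lost. In CATCH-IT they were 44.2% and 43.7%. Of the 7 gained culture channel regions 6 came from 5 hr, beside 4 of the 10 lost ones. The pooled culture contrast thus mixes direction with time. At 5 hr alone the channel medians were 50.4% gained against 42.5% lost. At 30 min the order over all listed regions was the other way, 45% gained against 47.5% lost. Base composition moved with direction in NeuN+ nuclei and in the pooled culture regions, but not at every KCl time. The part of base composition in the channel results was not tested. The AP-1 motif TGANTCA and the cyclic AMP response element TGACGTCA, read on both strands, were in 0 of the 39 H3.3 channel regions. Among all listed regions of 200 bp, the commonest length, the AP-1 letters were in 6.10% at 2 hr, 8.60% at 5 hr and 6.04% in NeuN+ nuclei. TGACGTCA was in 0.0398% of all gained and 0.0935% of all lost H3.3 regions, so its absence from 39 regions says little. In CATCH-IT the AP-1 letters were in 13 of 177 gained and 18 of 131 lost channel regions. Over all CATCH-IT regions they were in 10.96% of gained and 10.66% of lost ones. Whether H3.3 channel regions hold fewer of them than others was not tested.

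**Figure D5:**
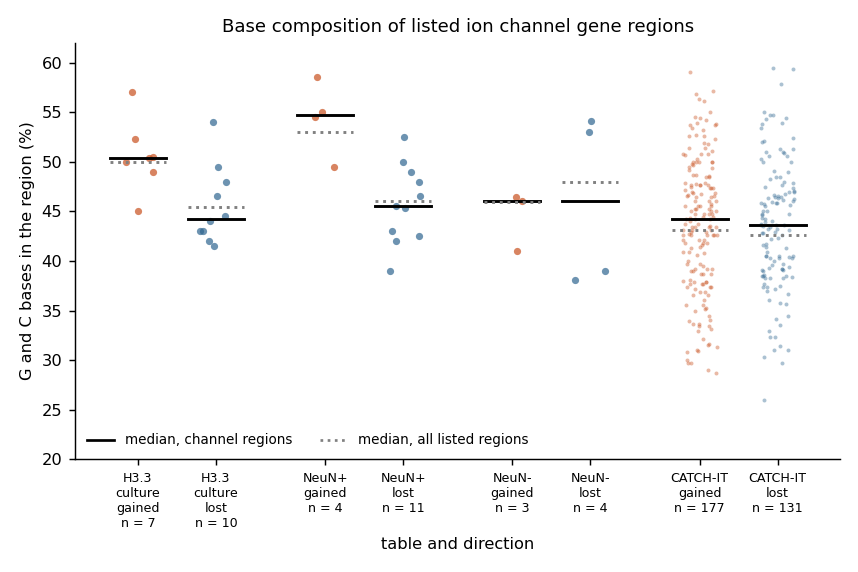
Share of G and C bases in each listed channel gene region (vertical axis, from 20 to 62%), by table and direction, with the median of the channel regions as a black line and that of all listed regions of the same kind as a dotted line. In culture, pooled over the KCl times, and in NeuN+ nuclei the gained regions lie higher, 50.4% against 44.3% and 54.8% against 45.5%. All listed regions of these pooled sets do so too.

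Places of the channel regions were also compared between tables. Among regions of the same gene in different tables, 0 pairs overlapped by at least 1 bp and 2 lay within 1000 bp. The share of overlaps over all listed regions is not given here. The CATCH-IT channel regions had a median length of 360 bp, in genes with a median length of 268 kb. Few overlaps could arise between such short regions, so the count of 0 says little about the channel genes. A region of Cacna1d lost at 2 hr lay 981 bp from a CATCH-IT region gained at 5 hr, and a region of Fgf14 lost in NeuN- nuclei lay 501 bp from a CATCH-IT region lost at 5 hr. The nearest CATCH-IT region of the same gene was at a median of 17.4 kb from an H3.3 region. At Kcnma1, a gained H3.3 region and a gained CATCH-IT region of 5 hr lay 1861 bp apart, and these tables come from separate libraries.

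Regions were also looked up at 79 other genes of the same channel families. In culture the Kv4 partner gene Dpp6 fell at 30 min, from 13.95, 10.82 and 12.70 to 0.86, 6.31 and 0.00, with adjusted p = 0.0248 in the authors' deposited table. Cacng4, of the calcium channel gamma family and also an AMPA receptor auxiliary subunit, was listed as gained at 5 hr without passing, with 11.80, 11.41 and 14.88 against 4.72, 3.08 and 1.94, and it rose in NeuN+ nuclei, with 21.19 and 17.12 against 7.53 and 3.08. In NeuN+ nuclei Kcne4 also rose and Cacng3 and Kcnab2 fell, 2 up and 2 down of 79 genes. In NeuN- nuclei only Scn10a was called, as lost, and at 2 hr none was listed. CATCH-IT gave these genes 78 gained and 59 lost regions over 42 genes.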

How the data were processed

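Chromatin regions were taken from 7 tables of the authors' own comparisons, covering 41 of the 66 samples. The tools were Bowtie 0.12.7 and bedtools 2.16.2 with build mm9, per the submitters' processing notes, and the caller of the regions and its test are not given in the sources used here. Per the file headers, each table holds the normalised read count of every library, packed in a cell without library names, and the authors' mean of these, a coverage signal. The authors also deposited a ratio of each mean to input, infinite where input is 0, a log2 ratio of the treated to the control mean, and a p-value with its adjusted value, which was used as it stands at 0.05. Counts by adjusted p are counts among regions already listed on the same libraries. The control group at 30 min has 4 labelled libraries, of which 1 repeats another, and 3 values per region. Per-sample columns that were not used numbered 0. The labels' protocols call the culture samples triplicates and the in vivo samples duplicates of biological kind, while NeuN- groups have 3 libraries each, and p-values measure at most the spread between these libraries.

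Regions were assigned to genes by the authors' symbol or Ensembl identifier, the latter named through GENCODE vM1. The transcripts named in the tables had the same ends, within 1 bp, in vM1 for 889 of 904 in NeuN+ nuclei and 458 of 468 at 2 hr. In the tables of 30 min, 2 hr and NeuN- nuclei, the deposited distance to the gene start counts from the left end of the transcript on both strands, within 2 bp for all 192, 201 and 306 minus-strand regions with a distance. Distances were therefore recomputed from the 5′ end of the transcript the authors assigned, and the gene assignment, which may rest on the same ends, was kept. What 1 read is worth was found as the step of which all values of a library are whole multiples within the rounding of the file, which held for 100% of values in every library but those of H3.1/2. No count test was run, since the tables hold only listed regions. The step finder recovered 8 of 8 simulated steps. SDs, positions, base composition and overlaps were computed with Python 3.11.15, pandas 2.3.3 and numpy 2.4.6.

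The 42 members, the class lists, the 79 other channel genes, the markers and the rule for named regions were chosen with earlier results of these data known. Values per library were to be given for called regions, up to 6 per table by smallest p, likewise for tables with none, and for CATCH-IT the 6 smallest p per direction and the 4 smallest at promoters. Further H3.3 regions were named after their values were seen.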

Additional observations from a re-analysis of the deposited data

Results flagged for a closer look

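At Cacna1c the H3.3 regions listed at 2 hr and 5 hr of KCl moved in opposite directions in every library. The log2 fold change in the authors' deposited table was -1.78 at 2 hr, where all 3 KCl values lay below all 3 control values, and 1.61 at 5 hr, where all 3 lay above. The difference between the times was not tested, the regions are different places in the gene, and the 5 hr region had an adjusted p of 0.110 in the authors' deposited table. Groups of 2 or 3 libraries were too small to look for a single library far from the others.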

How the results depend on the processing

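No paired analysis was possible because the packed values carry no library names or numbers. At a stricter adjusted p of 0.01, 0 channel regions were called at 30 min, 0 at 2 hr and 0 in NeuN+ nuclei, and all 7 in NeuN- nuclei and all 308 of CATCH-IT still were. Past 4-fold, 3 of 6 were left at 2 hr, 3 of 10 listed at 5 hr and 5 of 15 in NeuN+ nuclei, by construction of a stricter limit. With Benjamini-Hochberg adjustment over the listed regions alone all 10 regions at 5 hr passed. Fewer regions were then adjusted over, and those listed already had a small p, so this pass gives no support. In CATCH-IT, 30 regions kept a 2-fold difference relative to input, all of those with input reads in both groups, and 5 were above 0 in both groups. A lower group at 0 has a ratio of 0 to any input reads. Most of these 30 could therefore not fail the input check. The other regions lacked input reads in a group or in both, could not be assessed and were counted as not passing. The check gives no support to the CATCH-IT regions. With no library over 50% of the higher group, an alternative chosen after seeing the data, 61 were left. Leaving out a value in turn left 5 to 6 regions past 3-fold at 2 hr, 7 to 9 of the 10 listed at 5 hr and 12 to 15 in NeuN+ nuclei, and changed none of the counts at 30 min or in NeuN- nuclei. In CATCH-IT, where 303 of the 308 regions have a lower group at 0, it could hardly change the count and says nothing of stability. For single H3.3 regions, 269 of 275 alternative log2 fold changes moved by less than the replicate spread, 6 by more, and 0 changed sign. The sign could not change, since the groups do not overlap in these regions. Leaving out a value can hardly move a mean of 2 or 3 values by their SD, so these counts say little of stability. Leaving out a value cannot test the call, because the authors' test could not be repeated on listed regions, and depth limits NeuN- and CATCH-IT regions most.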
